A study of Mus musculus with 7 samples.

Results

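A set of 10 genes that mark the subsets of mouse blood monocytes was followed in RNA sequencing of cells sorted from lung. The genes were chosen by name, 3 for classical monocytes (F13a1, Fn1 and Vcan) and 7 for nonclassical monocytes (Cx3cr1, Ace, Spn, Treml4, Adgre4, Nr4a1 and Pou2f2). They were chosen with earlier results of these data known. All 10 were found in the table of 35641 genes. The cells came from 4 mice of a group named HF and from 3 mice of a group named LF, all female and of strain C57BL6. The labels do not spell out the 2 names, give no age and name no other treatment, and the title of the study speaks of obesity. Cells of all 7 mice were labelled neutrophils and were sorted as CD45+ CD11b+ Ly6Clo Ly6G+. The RNA was made into libraries by SMART-Seq, a kit method that copies small amounts of RNA into cDNA and amplifies it.

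Monocytes are circulating myeloid cells that share a progenitor with neutrophils. In the mouse, classical monocytes carry much Ly6C and the chemokine receptor CCR2 and enter inflamed tissue, where they can become macrophages or dendritic cells. Nonclassical monocytes carry little Ly6C and much CX3CR1, patrol the inner wall of small vessels, the lung's among them, and depend on the nuclear receptor NR4A1. Mature neutrophils are a separate lineage, marked in the mouse by Ly6G.

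The libraries differed in more than the genes described here. Reads assigned to genes numbered 13943173 to 16599658 in HF and 16974428 to 18983351 in the LF-labelled libraries. Summed over 15 neutrophil markers, the normalized counts ran from 437199 to 594996 in HF and from 12928 to 14357 in the LF-labelled libraries. Ly6g, the gene of the Ly6G sort marker, stood at 1301 to 4944 in HF and at 0 to 8.22 in the LF-labelled libraries. Ly6c2, a gene of the Ly6C sort marker, stood at 2839 to 6198.5 in HF and at 12882 to 15087 in the LF-labelled libraries. Because the 3 LF libraries went against the neutrophil label, they are called LF-labelled throughout. Every difference below lies between these libraries and the HF libraries. In bulk RNA, fewer cells of a type and less RNA of a gene per cell cannot be told apart.

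All 10 monocyte genes were lower in HF than in the LF-labelled libraries. The classical genes stood in HF at 1.86% to 4.10% of their level in the LF-labelled libraries, and the nonclassical genes at 4.75% to 52.3%. For each of the 10, every HF library lay below every LF-labelled library. Tested with limma on log2(normalized count + 1) and adjusted over all 14936 genes tested, 10 of 10 passed as lower and 0 as higher. Among all genes tested, 28.7% passed as lower in HF and 26.2% as higher, and 33.7% had every HF library below every LF-labelled library. As the 10 were chosen with earlier results of these data known, these shares describe the set and do not test it. The median log2 difference (HF minus LF) was -5.84 over the 3 classical genes and -3.17 over the 7 nonclassical genes, against -0.16 over all genes tested. The classical median is the value of Vcan, which has a library at 0, and by edgeR with the authors' size factors the medians were -4.99 and -2.89. All 10 cleared the minimum of 10 normalized counts on average with room to spare, the lowest being Vcan with a mean of 424.1 over the 7 libraries.

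**Figure D1:**
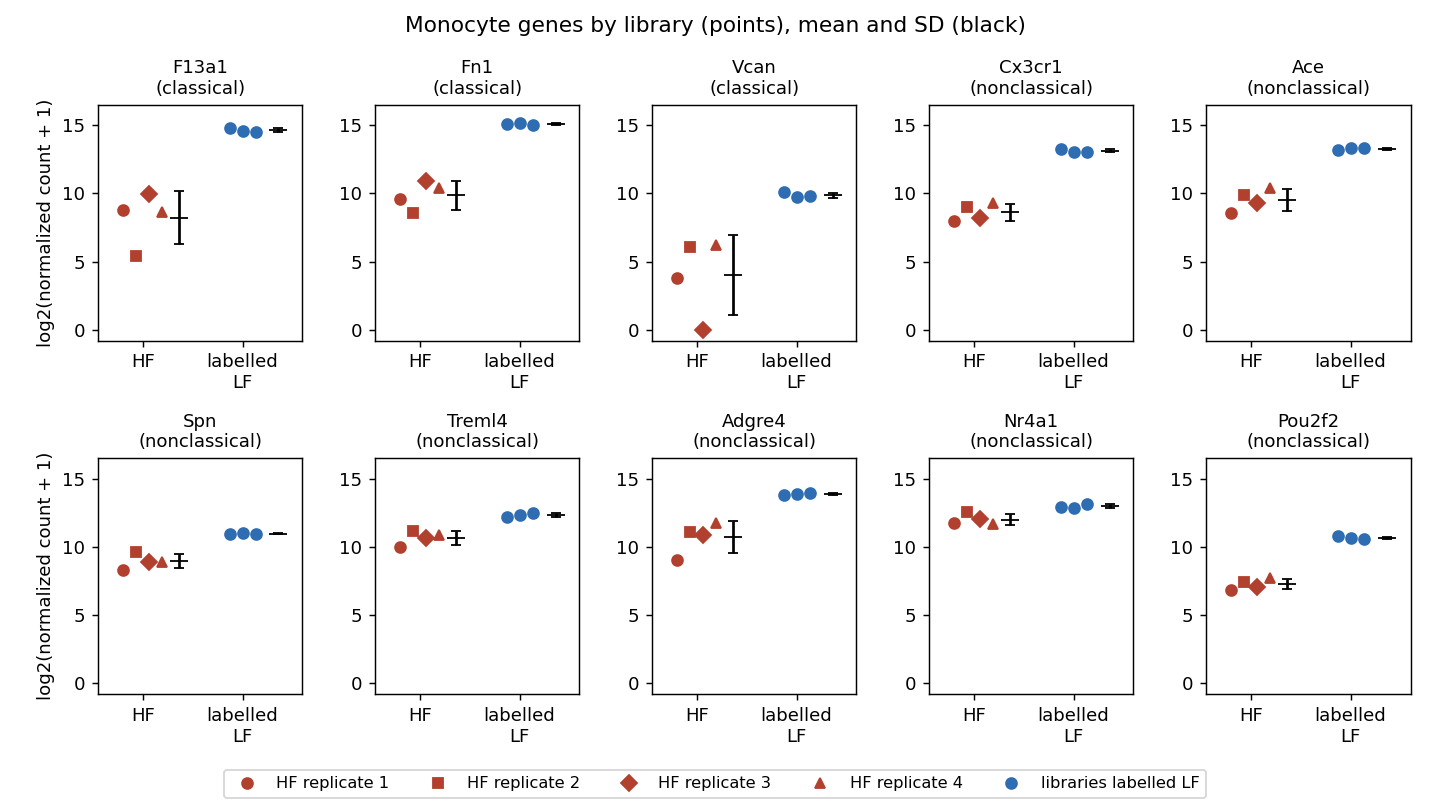
Level of each monocyte gene as log2(normalized count + 1) in the 4 HF libraries (red, 1 symbol per mouse) and the 3 LF-labelled libraries (blue), with the mean and SD of each group in black. HF lies below the LF-labelled libraries in all 10 panels, by the widest margin in F13a1 and the narrowest in Nr4a1, and Vcan reaches 0 in HF replicate 3.

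Among the classical genes, F13a1 encodes the catalytic subunit of coagulation factor XIII, the enzyme that cross-links fibrin. It had 437, 42.4, 1014 and 403 normalized counts in HF replicates 1 to 4, against 28944, 23898 and 23594 in LF6, LF7 and LF8. The lowest LF-labelled library was 23.3 times as high as the highest HF library, and within HF the values spread 23.9-fold, HF replicate 2 being the low one. The log2 difference was -6.42 ± 0.92 (SE; limma adjusted p = 0.000583), and it was -5.49 without HF replicate 2 and -7.01 without HF replicate 3. Only 31 of the 14936 genes tested had a more negative difference.

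The promoter windows held by RefSeq (250 bases before to 50 bases after an annotated start, build GRCm38.p6) were searched for exact matches, on both strands, to 5 short motifs of myeloid and stimulus-driven transcription factors. These were the NR4A1 response element AAAGGTCA, the octamer ATGCAAAT bound by POU2F2, a PU.1 element GAGGAAGT, a C/EBP element TTGCGCAA and the cyclic AMP response element TGACGTCA. Windows were present for 9 of the 10 genes, 11 windows in all, and Fn1 had no entry. The PU.1 element was found in 2 of them, one of F13a1 and that of Adgre4, and in 3.2% of all 32851 windows. The other 4 motifs, held by 0.183% to 1.79% of all windows, had no match in the 11. Both windows with the match are shown, with the match in capitals, as the members that held any of the 5 motifs. The F13a1 window lies at chr13:37049164-37049463 on the minus strand, and its match begins at base 265, after the annotated start.
F13a1 promoter: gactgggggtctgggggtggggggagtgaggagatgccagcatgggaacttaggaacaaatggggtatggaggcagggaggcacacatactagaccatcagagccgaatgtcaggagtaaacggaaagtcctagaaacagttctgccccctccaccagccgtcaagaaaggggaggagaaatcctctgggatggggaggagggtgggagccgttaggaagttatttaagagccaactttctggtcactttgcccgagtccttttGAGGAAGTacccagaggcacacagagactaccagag
The Adgre4 window lies at chr17:55749734-55750033 on the plus strand, and its match, the reverse complement, begins at base 292.
Adgre4 promoter: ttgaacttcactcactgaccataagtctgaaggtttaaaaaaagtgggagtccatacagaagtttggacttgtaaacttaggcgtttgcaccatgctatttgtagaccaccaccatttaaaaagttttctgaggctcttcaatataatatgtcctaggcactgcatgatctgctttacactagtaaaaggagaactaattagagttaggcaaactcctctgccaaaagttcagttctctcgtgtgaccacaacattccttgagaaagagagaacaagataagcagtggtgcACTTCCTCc

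Fn1 encodes fibronectin, a matrix glycoprotein that monocytes, macrophages and fibroblasts secrete. It had 772, 368, 1937 and 1315 normalized counts in HF replicates 1 to 4, against 35596, 36567 and 32371 in LF6, LF7 and LF8. As with F13a1, HF replicate 3 was the highest HF library and HF replicate 2 the lowest. Its log2 difference was -5.24 ± 0.49 (SE; limma adjusted p = 5.5e-05).

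Vcan encodes versican, a large chondroitin sulfate proteoglycan of the matrix, and was the least abundant classical gene per kilobase of exon. It had 12.7, 66.9, 0 and 74.4 normalized counts in HF replicates 1 to 4, against 1084, 852 and 879 in LF6, LF7 and LF8. These HF values rest on 11, 52, 0 and 58 reads, and the 0 in HF replicate 3 allows up to 3.36 normalized counts (3 reads, counting error only). HF replicate 3, the highest for F13a1 and Fn1, was therefore the lowest for Vcan. The log2 difference was -5.84 ± 1.39 (SE; limma adjusted p = 0.008), the widest error of the 10 genes. It was -4.50 without HF replicate 3, -6.53 without HF replicate 2 and -6.58 without HF replicate 4.

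The nonclassical genes spread over a wider range of differences. Cx3cr1, the receptor for the membrane-bound chemokine fractalkine, had the largest of them. It had 254, 518, 295 and 620 normalized counts in HF replicates 1 to 4, against 9693, 8340 and 8591 in LF6, LF7 and LF8. The lowest LF-labelled library was 13.5 times as high as the highest HF library, and the log2 difference was -4.49 ± 0.30 (SE; limma adjusted p = 8.75e-06).

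Ace encodes angiotensin-converting enzyme, a peptidase best known from endothelium and also carried by nonclassical monocytes. It had 371, 941, 612 and 1344 normalized counts in HF replicates 1 to 4, against 9110, 10029 and 10043 in LF6, LF7 and LF8. Its HF libraries kept the order seen for Cx3cr1, with HF replicate 4 highest and HF replicate 1 lowest. The log2 difference was -3.73 ± 0.38 (SE; limma adjusted p = 9.26e-05).

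Adgre4 encodes an adhesion G protein-coupled receptor of the EGF-TM7 family, related to the macrophage antigen F4/80. It had 531, 2192, 1898 and 3517 normalized counts in HF replicates 1 to 4, against 14700, 14727 and 15885 in LF6, LF7 and LF8. The HF libraries spread 6.62-fold, the widest spread among the nonclassical genes, while the LF-labelled libraries spread 1.08-fold. The log2 difference was -3.17 ± 0.55 (SE; limma adjusted p = 0.00164).

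Spn encodes CD43, a sialic acid-rich surface glycoprotein of leukocytes whose high level marks nonclassical monocytes in flow cytometry. It had 324, 798, 482 and 486 normalized counts in HF replicates 1 to 4, against 1991, 2100 and 1965 in LF6, LF7 and LF8. Its difference was smaller than that of Cx3cr1, Ace or Adgre4, at -2.02 ± 0.27 on the log2 scale (SE; limma adjusted p = 0.000384). Treml4, a receptor of the TREM-like family, had 1016, 2246, 1592 and 1920 normalized counts in HF replicates 1 to 4, against 4624, 5195 and 5778 in LF6, LF7 and LF8. Its log2 difference was -1.67 ± 0.25 (SE; limma adjusted p = 0.000734). For both genes HF replicate 2 was the highest and HF replicate 1 the lowest HF library.

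Both transcription factors of the group lay far apart. Pou2f2 encodes OCT2, a POU-domain factor known best from B cells. It had 116, 168, 135 and 209 normalized counts in HF replicates 1 to 4, against 1754, 1580 and 1556 in LF6, LF7 and LF8. With a log2 difference of -3.40 ± 0.22 (SE), it had the lowest adjusted p of the 10 genes (limma adjusted p = 6.2e-06), and its HF libraries had the smallest coefficient of variation of the 10, at 26%.

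Nr4a1 encodes the orphan nuclear receptor NUR77, without which mice lack most nonclassical monocytes, and is also an immediate early gene in many cell types. It had 3530, 5998, 4187 and 3265 normalized counts in HF replicates 1 to 4, against 7886, 7406 and 9074 in LF6, LF7 and LF8. The groups came closest here, the lowest LF-labelled library standing 1.24 times as high as HF replicate 2. The log2 difference was -0.97 ± 0.20 (SE; limma adjusted p = 0.00389), and 32.3% of all genes tested had a more negative one. Quantile normalization gave -1.67.

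The Nr4a1 promoter window is shown for a repeated element. It lies at chr15:101266596-101266895 on the plus strand and held none of the 5 motifs above. After the sequence was read, it was searched for TGCGTCA, a shorter variant of the cyclic AMP response element, on both strands. The window held 4 copies, in capitals below, all in the printed orientation and all before the annotated start. TGCGTCA or its reverse complement was present in 2.12% of the 32851 windows, and 1 window, that of Nr4a1, had 4 or more copies. Both the motif and the number 4 came from this window, so its reaching that number was fixed in advance. The window was also the richest in G and C of the 11, at 72.3%, against 40.3% for Adgre4.
Nr4a1 promoter: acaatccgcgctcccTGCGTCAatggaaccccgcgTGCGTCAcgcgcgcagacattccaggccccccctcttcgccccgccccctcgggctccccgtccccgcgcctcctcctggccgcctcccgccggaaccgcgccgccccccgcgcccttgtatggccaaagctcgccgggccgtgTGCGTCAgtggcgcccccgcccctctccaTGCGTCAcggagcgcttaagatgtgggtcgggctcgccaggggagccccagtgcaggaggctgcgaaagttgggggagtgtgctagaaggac

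**Figure D2:**
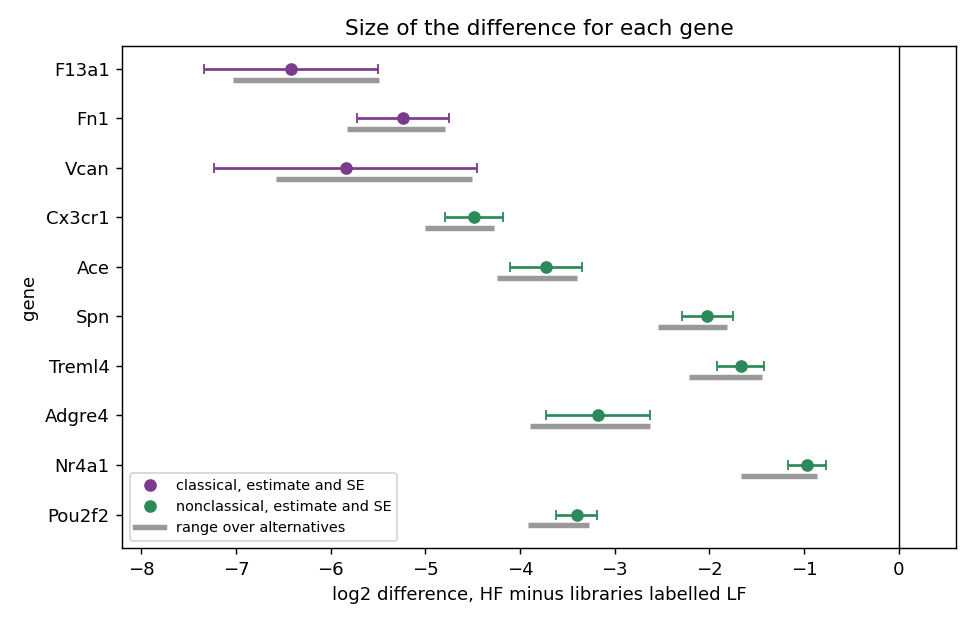
Log2 difference (HF minus LF-labelled libraries) of each monocyte gene with its SE (points and whiskers), and its range over 17 alternative ways of processing (grey bars). Classical genes (purple) lie between -6.42 and -5.24, nonclassical genes (green) between -4.49 and -0.97, and no bar reaches 0.

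The share of the level that was seen in HF differed from gene to gene. Taken as the HF mean over the mean of the LF-labelled libraries, it was 1.86% for F13a1, 3.15% for Fn1, 4.10% for Vcan and 4.75% for Cx3cr1. It was 8.40% for Ace, 9.64% for Pou2f2 and 13.5% for Adgre4. The highest shares were 25.9% for Spn, 32.6% for Treml4 and 52.3% for Nr4a1. Neighbours in this order overlapped between HF libraries. Vcan, for example, stood at 7.13% in HF replicate 2 and 7.93% in HF replicate 4, above the 5.84% and 6.98% of Cx3cr1 there. Fn1 stood at 5.56% in HF replicate 3, above the 3.32% of Cx3cr1. F13a1, at 0.167% to 3.98%, lay below Spn, at 16.1% to 39.5%, Treml4, at 19.5% to 43.2%, and Nr4a1, at 40.2% to 73.8%, in every HF library.

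**Figure D3:**
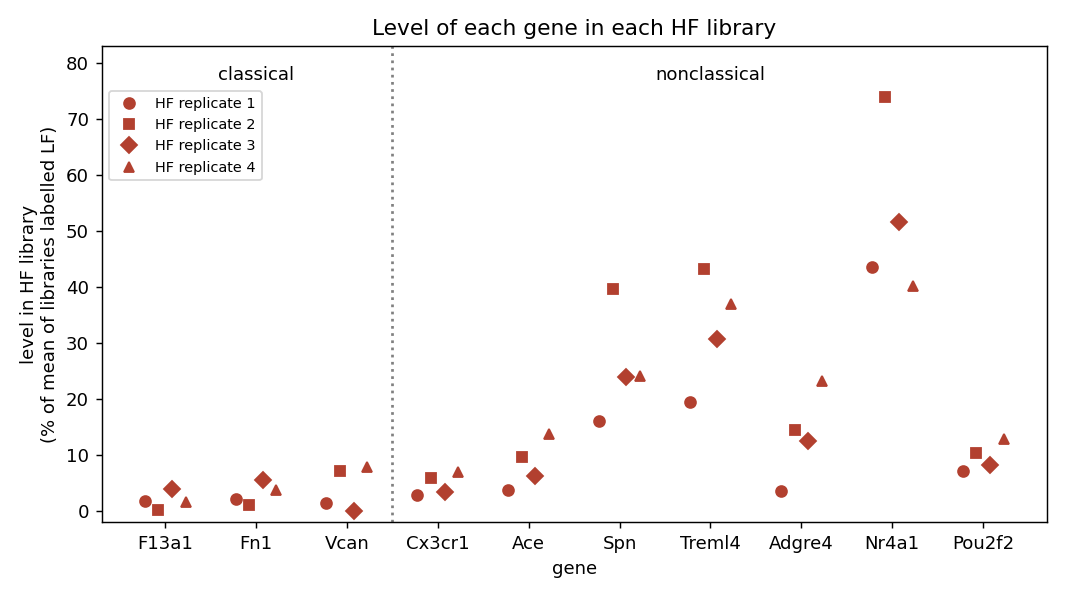
Level of each monocyte gene in each HF library as a percent of its mean in the 3 LF-labelled libraries (linear axis, 1 symbol per HF mouse). Classical genes stay below 8% in every HF library, while Spn, Treml4 and Nr4a1 lie between 16.1% and 73.8%.

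The balance between the 2 sets of genes also differed between libraries. On the log2(normalized count + 1) scale, the mean over the 3 classical genes minus the mean over the 7 nonclassical genes was -1.56, -3.42, -2.61 and -1.68 in HF replicates 1 to 4, against 0.90, 0.71 and 0.60 in LF6, LF7 and LF8. These are differences between sets of genes of unequal length, so their sign within a library carries no meaning, and the groups did not overlap. They do not count cells of either subset. The order within HF leans on single low values, such as Vcan at 0 in HF replicate 3. By the median percent of the LF-labelled mean over the classical genes, HF replicate 3 was instead the highest HF library. It stood at 3.98%, against 1.055% to 3.77% in the others. Per kilobase of merged exon (GENCODE M21), the most abundant of the 10 in HF were Nr4a1 at 1210, Treml4 at 848 and Adgre4 at 583 normalized counts per kilobase. In the LF-labelled libraries they were Adgre4 at 4327, F13a1 at 3781 and Fn1 at 2982. Vcan was the lowest in both, at 2.66 in HF and 64.9 in the LF-labelled libraries.

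For each of the 10 genes, values varied more between the HF libraries than between the LF-labelled ones. The coefficient of variation was 26% to 97.7% in HF and 3.56% to 13.5% in the LF-labelled libraries. Genes in general did so too. Over genes with 20 or more reads in a pair of libraries, the median chi-square per gene was 12.2 to 16.2 between HF libraries. Between LF-labelled libraries it was 2.29 to 3.01, and sampling alone gives 0.455. Of the 7 nonclassical genes, 6 were lowest in HF replicate 1, and 4 were highest in HF replicate 4 and 3 in HF replicate 2. The exception, Nr4a1, was lowest in HF replicate 4. The classical genes had another order, F13a1 and Fn1 being highest in HF replicate 3 and lowest in HF replicate 2. Markers of other cells moved between the HF libraries too. HF replicate 1 had the highest sum of 9 alveolar macrophage markers, at 3359 normalized counts against 1504 to 2115 in the other HF libraries. HF replicate 3 had the highest sum of the 9 platelet markers in the table, at 3471 against 877 to 929, and the highest sum of 9 interstitial macrophage markers, at 8371 against 3417 to 4912. The 13 dendritic cell and MHC class II genes summed to 30579 and 31676 in HF replicates 3 and 4 and to 14043 and 13200 in HF replicates 1 and 2. The part of these cells in the order of the monocyte genes within HF was not tested.

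Several of the genes are also made by other cells, whose markers were measured in the same libraries. Platelets carry factor XIII, and the platelet markers summed to 877 to 3471 normalized counts in HF and 196 to 397 in the LF-labelled libraries. The 8 fibroblast markers summed to 1382 to 1949 in HF and 139 to 222 in the LF-labelled libraries. The smooth muscle actin gene Acta2 alone stood at 1297 to 1949 in HF and 75.3 to 83.3 in the LF-labelled libraries. Without Acta2, the other 7 summed to 0 to 172 in HF and 55.4 to 139 in the LF-labelled libraries, and these ranges overlap. Of the 5 fibroblast markers tested, Acta2 was higher in HF (20%, against 26.2% of all genes tested). The receptor gene Pdgfrb was lower (20%, against 28.7% of all genes tested), at 3.21 against 84.3 on average. The matrix gene Dcn, picked after its values were seen, was at 0 in all 4 HF libraries and in LF7. The collagen gene Col1a2 stood at 0 to 51.9 in HF and 0 to 4.79 in the LF-labelled libraries. For Ace, the 9 endothelial markers summed to 130 to 564 in HF and 279 to 336 in the LF-labelled libraries, and 2 of the 8 tested, Kdr and Eng, were lower in HF (25%, against 28.7% of all genes tested), at 5.14 and 42.9 against 40.9 and 125.9. Both calls were lost when a library was left out (limma adjusted p up to 0.132 and 0.114). For Pou2f2, the 8 B cell markers summed to 5430 to 11107 in HF and 7034 to 7821 in the LF-labelled libraries. For Spn, the 8 T cell markers summed to 1264 to 2595 in HF and 1235 to 2892 in the LF-labelled libraries. For Cx3cr1, the 8 NK cell markers summed to 240 to 1215 in HF and 1172 to 1940 in the LF-labelled libraries. For interstitial macrophages, which can also carry Cx3cr1 and Fn1, the 9 markers summed to 3417 to 8371 in HF and 13969 to 17858 in the LF-labelled libraries. Apoe, which encodes a lipid carrier protein, made up most of the sum in every library, at 3223 to 4476 in HF and 12372 to 14242 in the LF-labelled libraries. The other 8 markers summed to 97.7 to 3895 in HF and 1462 to 3616 in the LF-labelled libraries, and these ranges overlap. Of the 8 interstitial macrophage markers tested, Apoe, Mrc1 and Ms4a7 were lower in HF (37.5%, against 28.7% of all genes tested) and 5 did not pass. The call of Mrc1 was lost when a library was left out (limma adjusted p up to 0.091). The 9 alveolar macrophage markers summed to 1504 to 3359 in HF and 836 to 854 in the LF-labelled libraries. Without Siglecf, the other 8 summed to 374.5 to 2042 in HF and 747 to 822 in the LF-labelled libraries, and these ranges overlap. Siglecf, a lectin gene that eosinophils also use, stood at 1129 to 1432 in HF and 19.5 to 89.3 in the LF-labelled libraries. Of the 7 alveolar macrophage markers tested, Siglecf and Ear1 were higher in HF (28.6%, against 26.2% of all genes tested). Il18 was lower (14.3%, against 28.7% of all genes tested) and 4 did not pass. The call of Ear1 was lost when a library was left out (limma adjusted p up to 0.102). Marco, picked after its values were seen, was at 0 in all 4 HF libraries and in LF7 and LF8. The 13 dendritic cell and MHC class II genes summed to 13200 to 31676 in HF and 72968 to 89358 in the LF-labelled libraries. Of these, 9 (69.2%) were lower in HF and 1 was higher, against 28.7% and 26.2% of all genes tested. With libraries left out in turn, 8 stayed lower each time and 0 higher, the calls of Xcr1 and Ccr7 being lost (limma adjusted p up to 0.0749 and 0.0569). The part of these other cells in the differences was not tested. In the platelet, endothelial, B cell, T cell and NK cell lists, 0 markers were at 0 in every library of a group.

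Other genes of the subsets moved in both directions. Of 8 other classical genes, 4 (50%) were lower in HF, 3 (37.5%) were higher and 1 did not pass, against 28.7% lower and 26.2% higher among all genes tested. Their median log2 difference was -1.34, or -2.23 after quantile normalization, which also ended the call of Mgst1, higher in HF (limma adjusted p = 0.343). Plac8, a gene of myeloid cells and lymphocytes, was lower at 2604 ± 492 (SD, n = 4) against 15409 ± 1013 (SD, n = 3). The chemokine receptor gene Ccr2, whose protein draws classical monocytes out of the marrow, was lower at 909 ± 633 (SD, n = 4) against 21847 ± 903 (SD, n = 3). Among those higher in HF was the haptoglobin gene Hp, at 32549 against 7061. Neutrophils also make haptoglobin. The neutrophil markers were 14 higher and 0 lower of 15, with a median log2 difference of 9.98, and their part in the difference of Hp was not tested.

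Of 17 other nonclassical genes, 10 (58.8%) were lower in HF, 3 (17.6%) were higher and 4 did not pass, against the same 28.7% and 26.2% of all genes tested. The median log2 difference was -1.54, or -2.14 after quantile normalization. The call of Itgax, higher in HF, was lost when library totals were made equal (limma adjusted p = 0.272), and also by quantile normalization (limma adjusted p = 0.0665). Without single libraries, 9 of the 10 stayed past the threshold in every case. Clec4a3, a C-type lectin, was lower at 2264 ± 428 (SD, n = 4) against 10309 ± 451 (SD, n = 3), and Gngt2, a G protein gamma subunit, at 2156 against 6262. The enolase gene Eno3 and the sphingosine 1-phosphate receptor gene S1pr5, both picked with their values known, were at 375 and 191 on average in HF, against 2122 and 1535 in the LF-labelled libraries. Pglyrp1, a peptidoglycan-binding protein of neutrophil granules, was higher in HF at 13028 against 1015. So was Itgal, the alpha subunit of LFA-1, at 24112 against 14909, but its log2 difference of 0.69 turned to -0.36 after quantile normalization. Cebpb, a transcription factor that nonclassical monocytes need, did not pass (6326 in HF and 6834 in the LF-labelled libraries; limma adjusted p = 0.53; picked after its values were seen).

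Among 12 genes that both subsets use, 11 (91.7%) were lower in HF and 1 (8.33%) was higher, against 28.7% and 26.2% of all genes tested. Their median log2 difference was -2.17, or -2.94 after quantile normalization. Leaving out single libraries ended the call of 2 of the 11 at least once. Csf1r, the receptor that monocytes need for survival, was lower at 14073 ± 1283 (SD, n = 4) against 33667 ± 736 (SD, n = 3). Irf8, a transcription factor of monocyte and dendritic cell progenitors, was lower at 232 ± 77.2 (SD, n = 4) against 5110 ± 590 (SD, n = 3). The gene that was higher, Spi1, encodes PU.1, a factor of both monocytes and neutrophils, at 16514 against 7003.

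**Figure D4:**
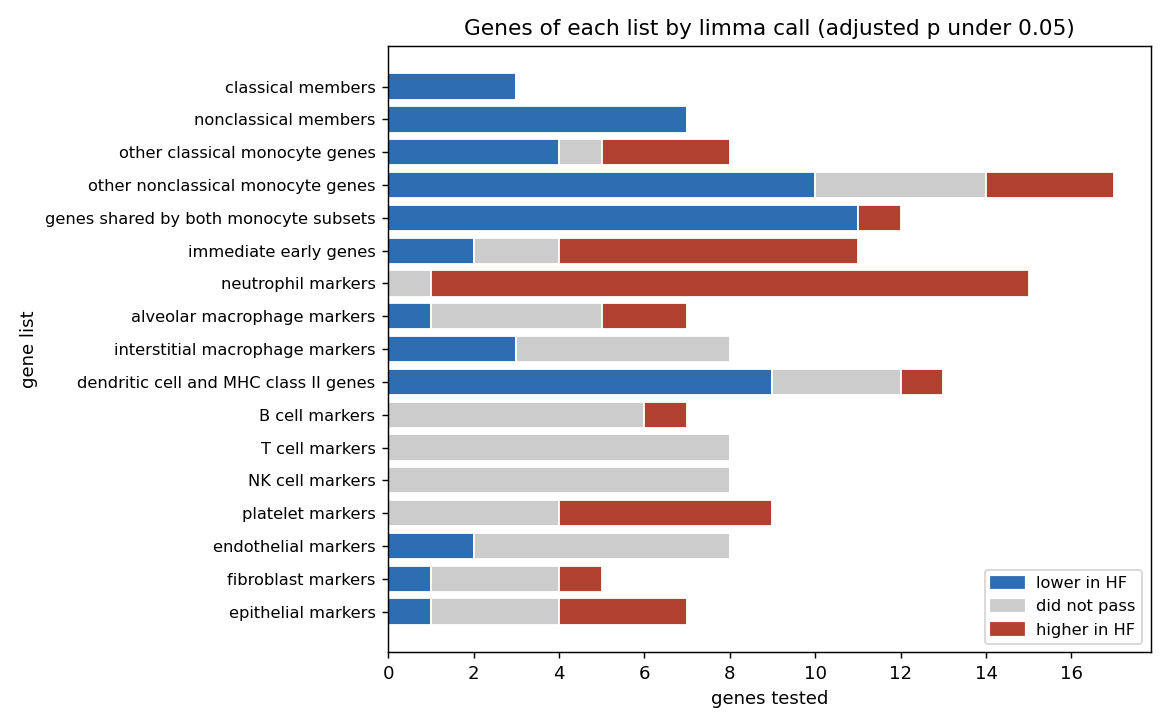
Number of genes in each list that were lower in HF (blue), did not pass (grey) or were higher in HF (red) at a limma adjusted p under 0.05, over the genes tested. The 10 monocyte genes at the top are all lower in HF, the neutrophil markers are higher except for 1, and the T cell and NK cell markers hold no call.

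Nr4a1 was also set beside 11 other immediate early genes, which cells switch on within minutes of a stimulus. Of these, 7 were higher in HF (63.6%, against 26.2% of all genes tested) and 2 did not pass. The other 2 were lower (18.2%, against 28.7% of all genes tested). The median log2 difference was 1.54, or 1.02 with equal library totals, which left 6 higher, and 0.66 after quantile normalization. Junb, a subunit of AP-1, stood at 42717 ± 3673 in HF (SD, n = 4), against 8698 ± 985 in the LF-labelled libraries (SD, n = 3). Dusp1, a phosphatase of MAP kinases, averaged 86561 and 22734, and Zfp36, which speeds mRNA decay, 42525 and 14474. Egr1 and Nr4a2, picked after their values were seen, went opposite ways, at 11585 and 12.5 in HF against 654.9 and 100.2 in the LF-labelled libraries, and the call of Nr4a2 was lost when a library was left out (limma adjusted p up to 0.0517). Leaving out single libraries ended the calls of both lower genes and of 1 of the 7 higher genes at least once, while Nr4a1 passed as lower each time.

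The genes most like each member over the 7 libraries were sought by the root mean square difference of log2 profiles centred on their own means, among the 9567 named genes whose mean reached 50. As the difference between the groups makes up most of each profile, this likeness is a description only. For Fn1 the nearest were Ccr2 (0.461), Ms4a6d (0.479) and Sdc3 (0.534), and for F13a1 they were Ccdc102a (0.817), Fn1 itself (0.902) and Trem2 (0.976). Vcan was nearest to Zfp709 (0.481), Lrrc8b (0.555) and Il6st (0.613). For Cx3cr1 they were Ldlrad3 (0.166), Irf8 (0.202) and Lrp1 (0.205), for Ace Ms4a6b (0.189), Nupr1 (0.209) and Ass1 (0.217), and for Pou2f2 Ifi30 (0.147), Ifi207 (0.159) and Ehd4 (0.168). Adgre4 was nearest to Rem1 (0.111), Stk3 (0.143) and Fut11 (0.186), and Nr4a1 to Maco1 (0.0983), Mfsd13a (0.111) and Dhx9 (0.118). Treml4 was nearest to Ap1g2 (0.142), Clic4 (0.148) and Agpat4 (0.157), and Spn to Usp14 (0.174), Smc5 (0.175) and Appl2 (0.176). Among the 10 genes themselves, the closest pair was Spn and Treml4 (0.238), and F13a1 and Fn1 were each other's nearest (0.902).

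In the authors' deposited table, all 10 genes carried a negative log2 fold change (HF over LF). It was -5.75 for F13a1, -4.99 for Fn1 and -4.61 for Vcan in the authors' deposited table. In the same table the nonclassical genes ran from -4.40 for Cx3cr1 to -0.94 for Nr4a1, and the highest adjusted p, 0.00196, was that of Vcan. In GENCODE M21, exons of F13a1, Fn1, Cx3cr1 and Ace overlap a gene on the opposite strand by 1.1% to 5.58% of their length. The sources do not say whether counting used strand, and the largest level among these partners was that of Gm33858 beside Cx3cr1, at 12.3 in HF and 181 in the LF-labelled libraries. Pou2f2 shares 0.425% of its exon length with the microRNA gene Mir6537 on its own strand.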

How the data were processed

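The deposited table gives, per its name and the file headers, normalized counts for 7 libraries, a signal that is never negative. Per the submitters' processing notes, STAR 2.6.1b, featureCounts 1.6.3 and DESeq2 1.20.0 were used, their roles and settings being unstated. Which genome build and annotation were used is not given in the sources used here. Every value (100% in each library, within 0.01) was a whole multiple of what 1 read is worth, which let whole reads be recovered, and edgeR called 7624 genes on them. The authors also deposited log2 fold changes, a score (their test statistic) and p-values with adjusted p-values, printed only in sentences that name the authors' deposited table. The HF columns match the labels. The LF columns, numbered 6 to 8 while the labels number 1 to 3, were assigned to the LF group without a replicate number (0 unmapped columns). The labels give mice per group and no further detail, so p-values measure the spread between libraries. For each gene that spread was taken as common to both groups, although the HF libraries varied more. None of the alternatives gave each group its own spread. No 2 libraries of a group agreed within sampling noise. The median chi-square per gene was 12.2 to 16.2 for pairs in HF and 2.29 to 3.01 for pairs of LF-labelled libraries. Sampling alone gives 0.455, and genes needed 20 or more reads in the pair.

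Genes averaging 10 or more normalized counts were tested as log2(normalized count + 1) with limma 3.58.1 (trend=TRUE, R 4.3.3), HF against LF, two-sided, with Benjamini-Hochberg adjustment over all genes tested and a threshold of 0.05. On this scale the added 1 shrinks differences of low genes, while the mean of log values gives much weight to a library at or near 0, as for Vcan. Values are means ± SD over libraries. The alternatives changed the pseudocount (0.5 or 5), the minimum mean (none or 50), the scaling (equal totals or quantiles) and the trend, used edgeR 4.0.16 (authors' size factors, or TMM) or DESeq2 1.42.0 with the recovered reads, or dropped 1 library. The tests were tried on simulated data. The members and lists were chosen with earlier results of these data known. Named beside the members are, of each list, the 3 genes of lowest p and the 1 of highest mean, and the 3 genes most like each member; not all are printed. Ly6g and Ly6c2, as genes of sort markers, and genes at 0 in a whole group were named in addition. Intervals and floors cover counting error only, since amplified reads are not independent molecules. Promoter sequences are from RefSeq, build GRCm38.p6, matched by symbol. Figures were drawn with matplotlib 3.10.9.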

Additional observations from a re-analysis of the deposited data

How the results depend on the processing

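All 10 monocyte genes stayed lower in HF and past the threshold under each of the 17 alternatives (170 of 170 values), with a highest adjusted p of 0.0298, that of Vcan without LF6. Counts over all genes stayed within 1.5 times, except that the split moved with equal library totals, which gave 2685 genes higher and 6357 lower (29.7% higher, against 47.7% with the authors' scaling) and moved the median log2 difference of all genes to -0.70, against -0.16. With libraries left out in turn, 3346 to 4031 genes were higher and 3062 to 4439 lower. Sizes moved more than calls. For Vcan the log2 difference was -4.62 by edgeR with the authors' size factors, -4.59 by DESeq2 and -5.14 with a pseudocount of 5, and for F13a1 it was -5.74 by the same edgeR fit and -5.74 by DESeq2. Quantile normalization gave -7.03 for F13a1, -5.83 for Fn1 and -3.89 for Adgre4. No paired analysis was possible because the LF columns carry no replicate number shared with the HF columns. Depth limits Vcan in HF, with 0 to 58 reads per library.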
